A study of Mus musculus with 9 samples.

Results

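Fatty acid oxidation and the targets of the peroxisome proliferator-activated receptors (PPARs) were followed through 39 genes of the mouse, chosen by symbol from 55335 genes listed in the count files. The list holds enzymes of mitochondrial and peroxisomal oxidation, acyl-CoA synthetases and thioesterases, lipid droplet proteins and genes known as PPAR targets, and it was set by gene name, with no threshold on measured values but with earlier results of these data known. Every one of the 39 symbols matched 1 row, and 32 of them had enough counts to be tested, among 13611 genes tested in all. RNA came from D2A1-d, a mouse breast carcinoma line grown as a culture with fetal bovine serum, in 9 libraries. Of these, 3 came from cells transduced with a non-targeting control hairpin (NTC, genotype labelled WT), 3 from cells with the short hairpin RNA shMed1 #2 and 3 from cells with shMed1 #4, both labelled as Med1 knockdown. All groups share the line and a transduction. The labels do not say whether a group is a clone or a pool, or how long after transduction RNA was taken. The titles number the 3 libraries of each group as biological replicates but do not tie them to separate transductions or cultures. The p-values therefore speak of the spread among these libraries, and that spread may be technical.

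Fatty acids enter a cell by uptake or from lipoproteins, are bound by small carrier proteins, and are activated to acyl-CoA by synthetases. Carnitine palmitoyltransferases and a carnitine carrier bring long chains into mitochondria, where a cycle of dehydrogenation, hydration, a further dehydrogenation and thiolysis shortens them, while peroxisomes handle other chains by their own enzymes. PPARs bind DNA as partners of retinoid X receptors and recruit coactivators, and MED1, the subunit of Mediator that binds nuclear receptors, was also described as a PPAR-binding protein. The comparison of hairpin and control cells asks how these transcripts stand where Med1 mRNA is lowered.

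Promoter windows of RefSeq (GRCm38.p6, 250 bases before to 50 after a start site) were at hand for 31 of the 39 genes, as 32 windows. The sites that PPAR and its partner read are built from the hexamer AGGTCA. The full repeat searched for was the exact direct repeat of it with 1 base between, AGGTCANAGGTCA. The hexamer and the repeat were searched on both strands, and a match to the full repeat is also a match to the hexamer. Forms that deviate from these letters were not searched for. The hexamer was present in the windows of 7 of 31 genes (22.6% of them, beside 18.1% of all genes in the table), namely Cpt1a, Cpt1c, Acadm, Acadvl, Echs1, Plin2 and Cd36, and in 16.3% of all 32851 windows. The full repeat was in 0 of the 32 windows and in 13 of all windows (0.0396%). A match is a description of the letters, and its absence says only that they are not in the window. The windows of 5 genes on which the results turn are shown 5′ to 3′ on the strand of the gene, with the hexamer in capitals. Acadm and Acadl encode related dehydrogenases that moved in opposite directions with shMed1 #4. Cpt1c and Etfdh had the largest differences between the hairpins, and Hadha starts from the same stretch as Hadhb on the other strand.
Acadm (chr3:153944594-153944893, minus strand): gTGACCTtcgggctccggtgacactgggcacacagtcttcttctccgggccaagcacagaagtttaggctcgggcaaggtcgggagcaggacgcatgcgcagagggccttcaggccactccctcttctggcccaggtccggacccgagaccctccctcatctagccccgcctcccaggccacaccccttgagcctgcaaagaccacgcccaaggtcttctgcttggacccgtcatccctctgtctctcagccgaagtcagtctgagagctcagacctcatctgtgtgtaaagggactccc
Acadl (chr1:66863260-66863559, minus strand): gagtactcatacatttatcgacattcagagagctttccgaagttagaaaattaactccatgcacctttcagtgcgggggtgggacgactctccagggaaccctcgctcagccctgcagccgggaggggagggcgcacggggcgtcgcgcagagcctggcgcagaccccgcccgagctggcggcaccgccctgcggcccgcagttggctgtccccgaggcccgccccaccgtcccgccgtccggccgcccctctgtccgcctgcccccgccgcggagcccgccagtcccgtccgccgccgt
Cpt1c (chr7:44974802-44975101, minus strand): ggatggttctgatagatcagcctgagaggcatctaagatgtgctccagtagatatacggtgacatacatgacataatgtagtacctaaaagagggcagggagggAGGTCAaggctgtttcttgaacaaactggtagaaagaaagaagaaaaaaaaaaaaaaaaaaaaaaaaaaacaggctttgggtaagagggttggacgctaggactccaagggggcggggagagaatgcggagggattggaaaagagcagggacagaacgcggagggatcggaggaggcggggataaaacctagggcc
Etfdh (chr3:79628718-79629017, minus strand): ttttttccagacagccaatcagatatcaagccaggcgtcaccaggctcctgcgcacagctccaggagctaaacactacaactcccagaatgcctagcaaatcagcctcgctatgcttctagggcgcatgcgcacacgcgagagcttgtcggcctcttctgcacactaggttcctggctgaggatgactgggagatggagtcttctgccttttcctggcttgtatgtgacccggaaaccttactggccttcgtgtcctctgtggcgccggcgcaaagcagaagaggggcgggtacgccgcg
Hadha (chr5:30154931-30155230, minus strand): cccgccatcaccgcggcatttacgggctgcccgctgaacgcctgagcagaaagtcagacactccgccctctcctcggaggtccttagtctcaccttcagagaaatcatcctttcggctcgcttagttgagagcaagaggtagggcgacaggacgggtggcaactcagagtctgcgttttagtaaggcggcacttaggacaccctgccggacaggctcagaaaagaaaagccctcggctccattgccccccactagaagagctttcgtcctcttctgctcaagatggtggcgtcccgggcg
In Acadm the match TGACCT is the hexamer read on the other strand, and its first base lies 249 bases before the start. In Cpt1c the hexamer lies on the gene's own strand, 146 bases before the start. The windows of Acadl, Etfdh and Hadha hold none. The windows of Hadha and Hadhb, which run apart from each other, share 228 of their 300 bases.

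Library totals were 8123918 to 8879982 counts. On these raw totals a count of 3, the limit that a count of 0 allows, corresponds to 0.338 to 0.369 CPM (counts scaled to a library of 1000000 counts). This limit covers counting error only. Med1 stood at 85.6, 87.5 and 79.8 CPM in NTC, 22.1, 25.2 and 24.7 CPM with shMed1 #2 and 25, 26.6 and 25.5 CPM with shMed1 #4. Its log2 fold changes were -1.81 (SE 0.0746, adjusted p = 5.67e-36) and -1.71 (SE 0.0739, adjusted p = 6.39e-34) in edgeR's quasi-likelihood test. These are folds of 0.285 and 0.305, so part of the transcript remained, and the protein was not measured here. The epithelial markers Epcam, Cdh1, Krt19, Krt14 and Esrp1 stayed under 1 CPM in every library, with Epcam at 0 in all 9, in cells labelled as breast carcinoma. The keratin genes Krt8 and Krt18 were present and lower with both hairpins (Krt18 50.7, 18.8 and 43.7 CPM on average in NTC, shMed1 #2 and shMed1 #4). These 2, the tested ones of the 7, had an adjusted p under 0.05 with each hairpin, beside 43.7% and 28.2% of all genes. Their log2 fold changes were -1.74 and -1.43 with shMed1 #2, and -0.89 and -0.21 with shMed1 #4. The summed level of the 7 epithelial markers was 56.5 to 58.3 CPM in NTC, 19.1 to 22.2 CPM with shMed1 #2 and 41.4 to 51.8 CPM with shMed1 #4. Of 7 fibroblast markers Dpt and Lum were at 0 in all libraries, and Dcn and Col3a1 stayed under 1 CPM. Pdgfra, Pdgfrb and Col1a1 made up nearly all of the sum of 170.0 to 184 CPM in NTC, 79.3 to 87.8 CPM with shMed1 #2 and 111 to 124 CPM with shMed1 #4. The part of these shifts in the results below was not tested. Of 7 adipocyte markers 6 stayed under 1 CPM in every library, with Adipoq at 0. Lipe, a lipase that many cells use, gave nearly all of the sum (13.8 to 14.9 CPM in NTC, 13.8 to 17.9 CPM with shMed1 #2 and 13 to 20.5 CPM with shMed1 #4). All 6 endothelial markers and 6 of 9 leukocyte markers stayed under 1 CPM. The leukocyte list, with Adgre1, Itgam and Cd3e at 0, summed to 16.8 to 19.7 CPM in NTC, 13.9 to 17.2 CPM with shMed1 #2 and 14.3 to 15.7 CPM with shMed1 #4, mostly from Csf1r. In such bulk RNA, fewer cells of a kind and less RNA per cell cannot be told apart.

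The pathway did not move as 1 block. With shMed1 #2, 10 of the 32 tested members were higher and 11 lower at an adjusted p under 0.05. With shMed1 #4, 4 were higher and 8 lower. Averaged over the hairpins, 6 were higher and 13 lower. A call on the mean can rest on 1 hairpin and is not a count of shared changes. Cpt1c and Etfdh were called lower on the mean (-1.10 and -0.43 on the log2 scale). With shMed1 #4 they were at 0.11 and -0.04, and neither passed. Among all 13611 genes tested, 43.7% were called with shMed1 #2 (21.8% higher and 21.9% lower), 28.2% with shMed1 #4 (14.0% higher and 14.1% lower), and 39.9% on the mean (19.7% higher and 20.2% lower). The members called were 65.6% and 37.5% of the 32 with shMed1 #2 and shMed1 #4. The tested members were also more abundant than most genes, with a median level of 49.1 CPM against 28.3 CPM for all genes tested. Among genes with a mean of at least 20 CPM, a limit chosen after seeing the data, 53.6% and 36.4% were called with shMed1 #2 and shMed1 #4. Of the members past that limit, 17 and 11 of 24 were called. Over all 32 tested members the median log2 fold change was -0.09 with shMed1 #2 and -0.03 with shMed1 #4, beside -0.0035 and 0.00086 for all genes. The median size without sign was 0.24 and 0.15, beside 0.21 and 0.15 for all genes. Cpt1c with shMed1 #2 was the 1 member that changed at least 2-fold against NTC.

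The counts depended on the fit. With shMed1 #2 there were 5 higher and 13 lower on library sizes alone, 5 and 12 with upper quartile scaling, and 5 and 8 in DESeq2. The calls over all genes tilted the same way under the first 2 of these, with 39.9% and 43.8% of them higher, against 49.8% with TMM and 51.2% in DESeq2. With shMed1 #4 there were 3 higher and 10 lower with library size alone and, without NTC replicate 3, 3 higher and 4 lower. Of the 21 members called with shMed1 #2, 13 kept the call in all 18 alternatives, and of the 12 called with shMed1 #4, 5 kept it: Acadm, Acadl, Hadh, Hsd17b4 and Acot2. The calls with each hairpin that were lost are named with their genes below. Of the 19 members called on the mean, 12 kept the call in all 17 alternatives. Cpt2, Slc25a20, Acads, Echs1, Acaa2, Etfa and Angptl4 lost that call in some. The comparisons of each hairpin with NTC use the same NTC libraries, and their values are only given side by side.

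**Figure D1:**
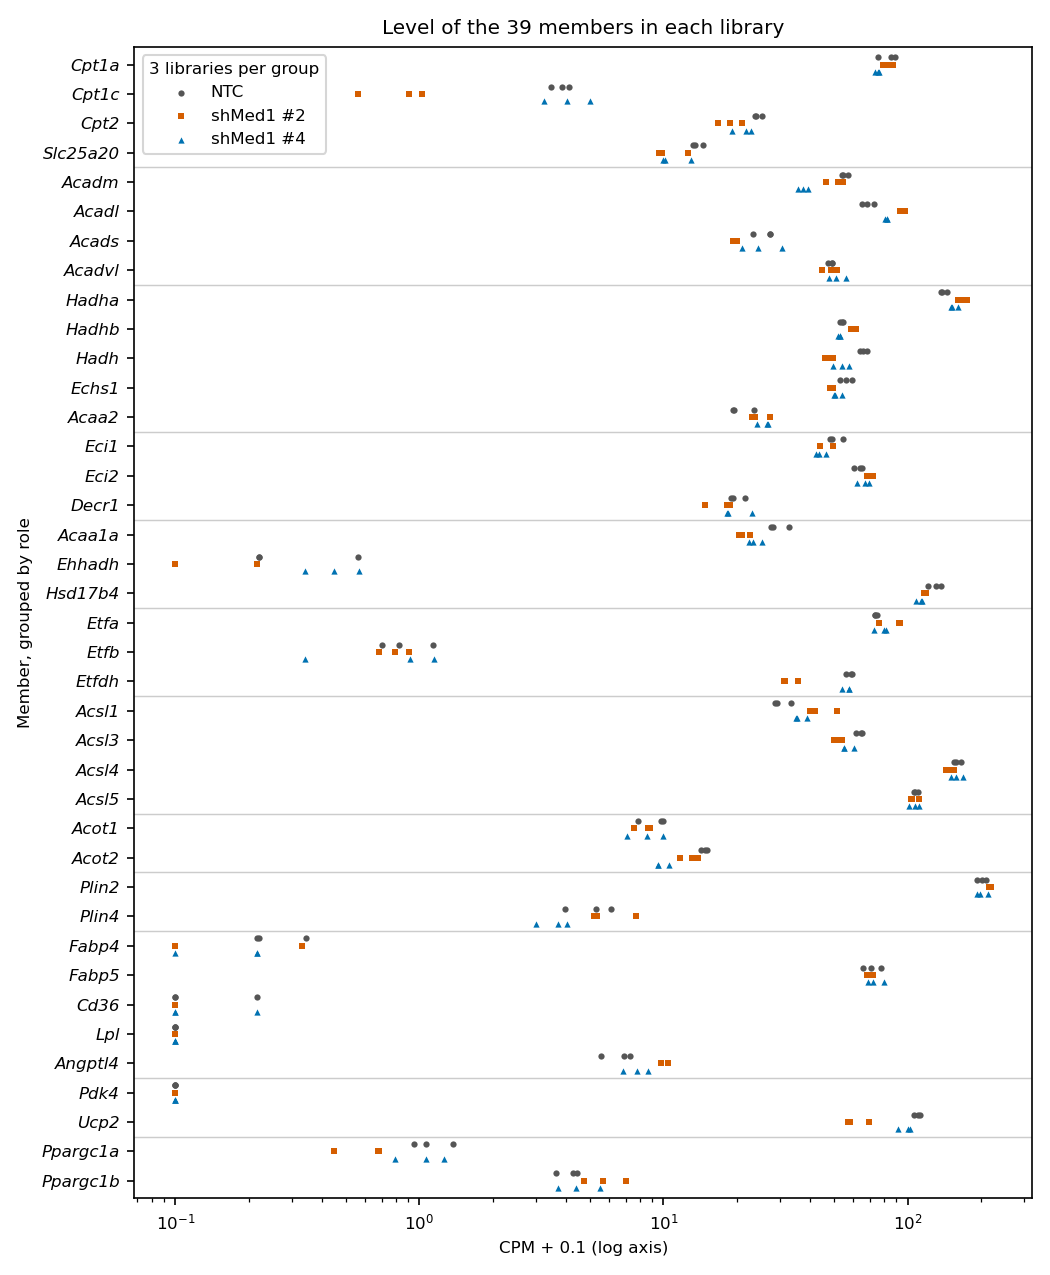
Level of each of the 39 members in CPM, with 0.1 added, on a log axis; each point is 1 library and gray circles are NTC, orange squares shMed1 #2 and blue triangles shMed1 #4, in groups of role parted by lines. Most enzymes sit between 10 and 200 CPM in every group. Pdk4, Lpl, Cd36, Fabp4 and Ehhadh lie toward the left, at or under 0.465 CPM in every library. Etfb and Ppargc1a lie at or under 1.27 CPM, as does Cpt1c with shMed1 #2.

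**Figure D2:**
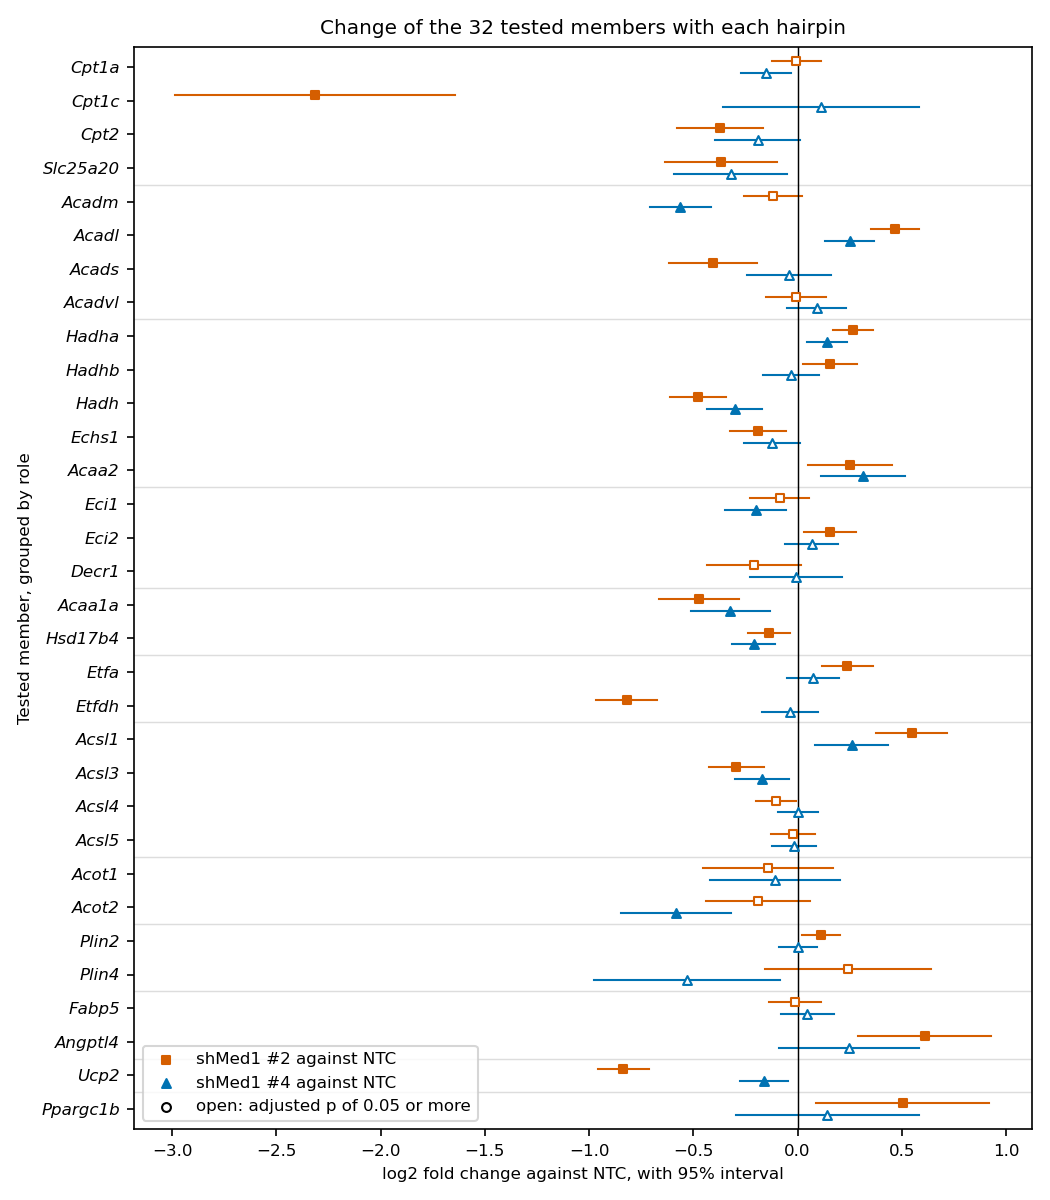
Fitted log2 fold change against NTC of the 32 tested members (x axis) with 95% intervals, for shMed1 #2 (orange squares) and shMed1 #4 (blue triangles); filled symbols passed an adjusted p of 0.05. Most values lie within 0.6 of 0, and Cpt1c with shMed1 #2 stands apart at -2.31.

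Under fatty acid entry into mitochondria, 4 tested genes were grouped by name, and entry itself was not measured. Of these, 3 were lower with shMed1 #2 and 0 passed with shMed1 #4, beside 43.7% and 28.2% of all genes called. In the direct test between the hairpins, Cpt1c was the 1 of the 4 that differed. For Cpt1a, Cpt2 and Slc25a20 the differences were -0.14, 0.18 and 0.05 (adjusted p = 0.0641, 0.211 and 0.856), and that of Cpt1a passed without shMed1 #2 replicate 1 (0.0342). Cpt1a, the carnitine palmitoyltransferase that sets the rate of entry in most tissues, was the main isoform. Its level was 10.9 CPM per kilobase of exon in NTC against 0.66 for Cpt1c, the isoform best known from neurons. Cpt1a measured 85.3, 75.8 and 89 CPM in NTC, 79, 87.1 and 83.3 CPM with shMed1 #2 and 76.3, 75.8 and 73.4 CPM with shMed1 #4. The libraries with shMed1 #2 lay within the range of NTC, and the highest with shMed1 #4 lay just above the lowest of NTC. Its log2 fold changes were -0.01 (95% interval -0.12 to 0.11) and -0.15 (SE 0.0602, adjusted p = 0.0515), neither past the threshold. The second passed with library size alone (adjusted p = 0.0212), upper quartile scaling (0.0297), the stricter filter (0.0415), only the groups compared (0.0484) or without NTC replicate 2 (0.011). Cpt1c measured 4, 3.74 and 3.36 CPM in NTC, 0.46, 0.929 and 0.807 CPM with shMed1 #2 and 4.89, 3.13 and 3.94 CPM with shMed1 #4. Each library with shMed1 #2 held 4 to 8 counts of it, below every NTC and shMed1 #4 library. Cpt1c fell by 2.31 on the log2 scale with shMed1 #2 (SE 0.338, adjusted p = 1.5e-08), and with shMed1 #4 the value was 0.11 (95% interval -0.36 to 0.58, adjusted p = 0.77). Of its exon bases, 6.53% are also exonic in 6530437J22Rik on the other strand, which stayed at or under 1.16 CPM. Cpt2, the second transferase on the inner membrane, measured 25.3, 23.7 and 23.5 CPM in NTC, 16.6, 20.9 and 18.6 CPM with shMed1 #2 and 21.8, 19 and 22.7 CPM with shMed1 #4. It fell by 0.37 with shMed1 #2 (SE 0.104, adjusted p = 0.00203), all 3 libraries lying below NTC. The value with shMed1 #4 was -0.19 (SE 0.102, adjusted p = 0.163). The carnitine carrier gene Slc25a20 measured 13.3, 13.1 and 14.5 CPM in NTC, 9.77, 12.5 and 9.45 CPM with shMed1 #2 and 9.89, 12.9 and 10.1 CPM with shMed1 #4, so that all 6 hairpin libraries were below NTC. The fitted log2 fold changes were -0.37 (SE 0.136, adjusted p = 0.0221) and -0.32 (SE 0.136, adjusted p = 0.0681), of which the first passed. That call did not hold in DESeq2 (adjusted p = 0.08), without NTC replicate 3 (0.0917), without shMed1 #2 replicate 1 (0.0951) and without shMed1 #2 replicate 3 (0.12). With shMed1 #4 a call was made with library size alone (adjusted p = 0.0477) and without shMed1 #4 replicate 2 (0.0207).

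The 4 acyl-CoA dehydrogenases of mitochondria, which open the cycle for chains of different length, went separate ways. Long-chain Acadl, the most abundant of them per length (34.2 CPM per kilobase of exon in NTC, against 18 for Acadvl, 14 for Acadm and 11.4 for Acads), was higher with both hairpins. It measured 67.9, 65.2 and 72.7 CPM in NTC, 97.9, 93.8 and 93.3 CPM with shMed1 #2 and 82.4, 80.4 and 82.1 CPM with shMed1 #4. The groups did not overlap. Acadl rose by 0.47 with shMed1 #2 (SE 0.058, adjusted p = 8.65e-11) and by 0.25 with shMed1 #4 (SE 0.0593, adjusted p = 0.000553). Medium-chain Acadm, long described as a PPAR target, measured 56.8, 54.3 and 53.7 CPM in NTC, 54.3, 46.2 and 51.6 CPM with shMed1 #2 and 37.2, 39 and 35.5 CPM with shMed1 #4. All libraries with shMed1 #4 lay below the other 6, and those with shMed1 #2 overlapped NTC. Acadm fell by 0.56 with shMed1 #4 (SE 0.0736, adjusted p = 1.47e-09), and with shMed1 #2 the value was -0.12 (SE 0.0699, adjusted p = 0.177). The latter passed on library sizes alone (adjusted p = 0.0482). Short-chain Acads measured 23.2, 27.2 and 27.3 CPM in NTC, 19.7, 19.97 and 19.1 CPM with shMed1 #2 and 24.3, 20.8 and 30.4 CPM with shMed1 #4. It was below NTC in the 3 libraries with shMed1 #2, where it fell by 0.40 (SE 0.106, adjusted p = 0.0011), and its libraries with shMed1 #4 spread to both sides of NTC (-0.04, SE 0.102, adjusted p = 0.813). Very long-chain Acadvl, at 48.3, 48.1 and 51.5 CPM on average, passed with neither hairpin (95% intervals -0.15 to 0.14 and -0.05 to 0.23 on the log2 scale). Of its exon bases 42.9% are also exonic in Dvl2 on the other strand, which stood at 64.9 to 79.4 CPM. Whether the counting used strand is not known here, so the level of Acadvl and its rank per length are uncertain.

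**Figure D3:**
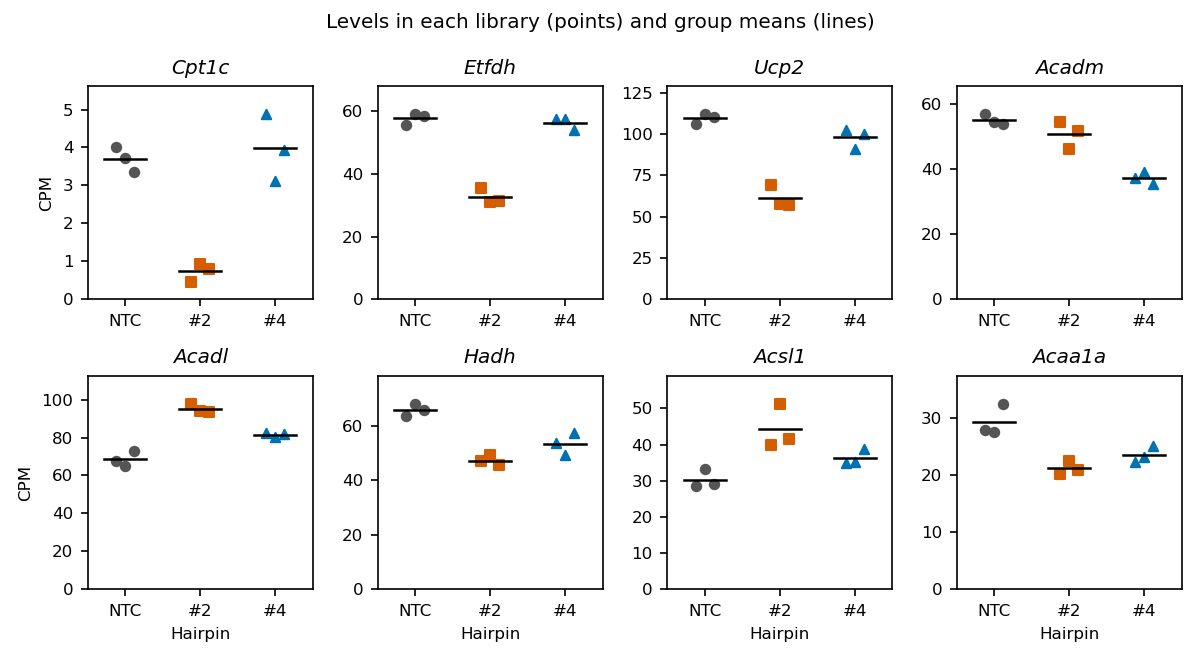
CPM (y axis, from 0) of 8 members in each of the 9 libraries, by hairpin (x axis); points are libraries and black lines are group means. Cpt1c, Etfdh and Ucp2 are low with shMed1 #2, Acadm is low with shMed1 #4 at 37.2 CPM on average, Acadl and Acsl1 are higher and Hadh and Acaa1a lower than NTC with both hairpins.

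Enzymes of the later steps of the mitochondrial cycle changed in both directions. Hadha and Hadhb encode the alpha and beta subunits of the trifunctional protein, which carries out the last 3 steps on long chains. Hadha measured 139, 137 and 144 CPM in NTC, 175, 161 and 170.0 CPM with shMed1 #2 and 150.1, 161 and 153 CPM with shMed1 #4. All 6 hairpin libraries were above NTC. It rose by 0.27 with shMed1 #2 (SE 0.0481, adjusted p = 2.43e-06) and by 0.14 with shMed1 #4 (SE 0.0486, adjusted p = 0.0195). The call with shMed1 #4 did not hold on library sizes alone (adjusted p = 0.06), without NTC replicate 1 (0.0639), without NTC replicate 2 (0.0881) and without shMed1 #4 replicate 2 (0.121). Hadhb measured 53.6, 52.7 and 54.4 CPM in NTC, 59.1, 58.5 and 61.5 CPM with shMed1 #2 and 51.7, 52.6 and 52.9 CPM with shMed1 #4. The 3 libraries of shMed1 #2 were highest. Its log2 fold changes were 0.16 (SE 0.0655, adjusted p = 0.0441) and -0.03 (SE 0.067, adjusted p = 0.767). The call with shMed1 #2 did not hold in 12 of 18 alternatives (adjusted p from 0.0501 to 0.179), among them those without NTC replicate 1 or 2 or 3 or shMed1 #2 replicate 1 or 2 or 3. Of the 50-base words in Hadhb transcripts, 19.7% also occur in transcripts of other genes, most of them in the pseudogene Gm13910, so its counts are less certain.
Hadh, the 3-hydroxyacyl-CoA dehydrogenase for shorter chains, was lower with both hairpins. It measured 63.5, 68.2 and 65.8 CPM in NTC, 47, 49.2 and 45.6 CPM with shMed1 #2 and 53.8, 49.2 and 57.3 CPM with shMed1 #4. No hairpin library reached NTC. Hadh fell by 0.48 with shMed1 #2 (SE 0.0676, adjusted p = 6.68e-09) and by 0.30 with shMed1 #4 (SE 0.0665, adjusted p = 0.000209). The enoyl-CoA hydratase gene Echs1 measured 52.7, 55.9 and 59.1 CPM in NTC, 49.5, 48.2 and 49.3 CPM with shMed1 #2 and 53.9, 49.7 and 50.4 CPM with shMed1 #4. The libraries with shMed1 #2 lay below NTC and those with shMed1 #4 overlapped it. Its log2 fold changes were -0.19 (SE 0.0685, adjusted p = 0.0183) and -0.12 (SE 0.0682, adjusted p = 0.181). The first passed, and that call did not hold in DESeq2 (adjusted p = 0.0606), without NTC replicate 3 (0.122) and without shMed1 #2 replicate 2 (0.0635). The thiolase gene Acaa2 measured 19.3, 19.2 and 23.4 CPM in NTC, 23.6, 27.2 and 22.9 CPM with shMed1 #2 and 24, 26.4 and 26.8 CPM with shMed1 #4. NTC replicate 3 lay inside the range of shMed1 #2 and just below that of shMed1 #4. It rose by 0.25 (SE 0.102, adjusted p = 0.0382) and by 0.32 (SE 0.101, adjusted p = 0.0122). The call of Acaa2 with shMed1 #2 did not hold in 7 of 18 alternatives (adjusted p from 0.0571 to 0.232), among them those without NTC replicate 1 or 2 or shMed1 #2 replicate 2. The call with shMed1 #4 did not hold without NTC replicate 1 (adjusted p = 0.0744) and without NTC replicate 2 (0.0789).

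Among the 3 enzymes that prepare unsaturated chains for the cycle, changes were small. The isomerase gene Eci1 measured 47.9, 48.8 and 54.5 CPM in NTC, 43.8, 49.3 and 49.4 CPM with shMed1 #2 and 43.4, 46.2 and 42.1 CPM with shMed1 #4. Its log2 fold change was -0.20 (SE 0.0732, adjusted p = 0.03) with shMed1 #4 and -0.09 (adjusted p = 0.349) with shMed1 #2. The first of these calls did not hold in DESeq2 (adjusted p = 0.0996), with no filter (0.0502), without NTC replicate 3 (0.227), without shMed1 #4 replicate 1 (0.0829) and without shMed1 #4 replicate 3 (0.107). Eci2, an isomerase found in mitochondria and peroxisomes, averaged 63.1, 70.4 and 66.1 CPM, higher with shMed1 #2 by 0.16 (SE 0.0627, adjusted p = 0.0338). This call did not hold in 8 of 18 alternatives (adjusted p from 0.0519 to 0.159), among them those without NTC replicate 1 or 3 or shMed1 #2 replicate 1 or 3. The dienoyl-CoA reductase gene Decr1, at 19.8, 17.1 and 19.7 CPM, passed with neither hairpin (95% intervals -0.43 to 0.02 and -0.23 to 0.21).

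Both tested members of peroxisomal oxidation were lower with each hairpin. Among all genes tested, 43.7% and 28.2% were called with shMed1 #2 and shMed1 #4. Other peroxisomal lipid genes, given below, went in both directions. Acaa1a, the peroxisomal thiolase and a known PPAR target of mouse liver, measured 28, 27.6 and 32.5 CPM in NTC, 20.2, 22.5 and 20.9 CPM with shMed1 #2 and 22.2, 23.1 and 25.2 CPM with shMed1 #4. Every hairpin library lay below NTC. Acaa1a fell by 0.47 with shMed1 #2 (SE 0.0963, adjusted p = 2.9e-05) and by 0.32 with shMed1 #4 (SE 0.0949, adjusted p = 0.00593). The call with shMed1 #4 did not hold without NTC replicate 3 (adjusted p = 0.0877). Of its 50-base words 12.4% also occur in its close copy Acaa1b, which stayed under 1 CPM in every library. Of its exon bases 6.57% are also exonic in Myd88 on the other strand, which stood at 21.4 to 29.8 CPM. Hsd17b4, the multifunctional hydratase and dehydrogenase of peroxisomes, measured 121, 137 and 131 CPM in NTC, 117, 118 and 119 CPM with shMed1 #2 and 115, 108 and 114 CPM with shMed1 #4. No hairpin library reached NTC. It fell by 0.14 with shMed1 #2 (SE 0.0511, adjusted p = 0.0241) and by 0.21 with shMed1 #4 (SE 0.0516, adjusted p = 0.000827). Its call with shMed1 #2 did not hold in DESeq2 (adjusted p = 0.0686), without NTC replicate 2 (0.192), without NTC replicate 3 (0.069), without shMed1 #2 replicate 1 (0.0689) and without shMed1 #2 replicate 2 (0.0572). Ehhadh, the other bifunctional enzyme of peroxisomes and among the most induced PPAR targets of liver, was barely detected and was not tested. It had 1, 1 and 4 counts in NTC, 0, 1 and 0 with shMed1 #2 and 4, 2 and 3 with shMed1 #4.

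Electrons from the dehydrogenases pass through the electron transfer flavoprotein, made of the Etfa and Etfb products, to its ubiquinone oxidoreductase, made by Etfdh. The oxidoreductase gene Etfdh measured 55.6, 59.2 and 58.5 CPM in NTC, 35.6, 31.1 and 31.3 CPM with shMed1 #2 and 57.4, 57.6 and 53.9 CPM with shMed1 #4. The 3 libraries with shMed1 #2 stood far below the other 6, and those with shMed1 #4 lay in and just below the range of NTC. Etfdh fell by 0.82 with shMed1 #2 (SE 0.0737, adjusted p = 2.27e-16), and with shMed1 #4 the value was -0.04 (95% interval -0.17 to 0.10, adjusted p = 0.735). Of its exon bases 3.7% are also exonic in 4930579G24Rik on the other strand, which stood at 19.7 to 28.2 CPM. Etfa measured 73.6, 75.1 and 73.3 CPM in NTC, 76.6, 92.5 and 92.9 CPM with shMed1 #2 and 79.7, 81.4 and 72.7 CPM with shMed1 #4. It rose by 0.24 with shMed1 #2 (SE 0.0619, adjusted p = 0.000938), while Etfdh fell in the same libraries. The value with shMed1 #4 was 0.07 (SE 0.063, adjusted p = 0.414). Etfb had 2 to 9 counts in each library and was not tested. On the same strand, 53% of its exon bases are also exonic in Gm45233, which was at 0 in all 9 libraries. How reads over both genes were treated is not stated, and no level of Etfb is read from these counts.

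The long-chain acyl-CoA synthetases, which activate fatty acids for oxidation or storage, split by gene. Acsl4, the isoform that prefers arachidonic acid, was the highest per length (29.5 CPM per kilobase of exon in NTC), ahead of Acsl5 (22.1), Acsl3 (14.6) and Acsl1 (2.89). Acsl1, the isoform of liver, heart and fat and a known PPAR target, measured 28.6, 33.1 and 29.1 CPM in NTC, 39.9, 51.3 and 41.5 CPM with shMed1 #2 and 34.8, 35.1 and 38.7 CPM with shMed1 #4. Each hairpin library was above NTC. It rose by 0.55 with shMed1 #2 (SE 0.0851, adjusted p = 1.06e-07) and by 0.26 with shMed1 #4 (SE 0.0881, adjusted p = 0.0191). The call with shMed1 #4 did not hold in DESeq2 (adjusted p = 0.0753), without NTC replicate 1 (0.0992), without NTC replicate 3 (0.0893) and without shMed1 #4 replicate 3 (0.104). Acsl3, found on lipid droplets and the endoplasmic reticulum, moved the other way. It measured 65, 61.3 and 64.6 CPM in NTC, 53.7, 49.8 and 52.3 CPM with shMed1 #2 and 54.8, 60.2 and 54.8 CPM with shMed1 #4. It fell by 0.29 (SE 0.066, adjusted p = 0.000142) and by 0.17 (SE 0.0654, adjusted p = 0.0416). Its call with shMed1 #4 did not hold in 6 of 18 alternatives (adjusted p from 0.0805 to 0.15), among them those without NTC replicate 1 or 3 or shMed1 #4 replicate 1 or 3. Acsl4, at 159, 148 and 159.6 CPM on average, passed with neither hairpin (95% intervals -0.20 to -0.01 and -0.09 to 0.10). With shMed1 #2 it passed with library size alone (adjusted p = 0.0086), upper quartile scaling (0.0213) or without shMed1 #2 replicate 3 (0.0486). For Acsl5, at 108, 106 and 106 CPM, the intervals were -0.13 to 0.09 and -0.12 to 0.09, so that a change beyond about 0.13 in size lies outside both. Of its exon bases 8.31% are also exonic in Zdhhc6 on the other strand, which stood at 89.5 to 111 CPM. Of the exon bases of Acsl3, 5.6% are also exonic in Utp14b on the same strand, which stood at 9.31 to 18.8 CPM.
The thioesterases Acot1 (cytosol) and Acot2 (mitochondria), which release fatty acids from acyl-CoA, are close copies. Of the 50-base words of Acot2 transcripts 24.5% also occur in Acot1, so that reads may be split or dropped. Acot2 measured 14.2, 14.9 and 14.7 CPM in NTC, 13.8, 13 and 11.6 CPM with shMed1 #2 and 9.43, 9.39 and 10.4 CPM with shMed1 #4. The 3 libraries of shMed1 #4 were lowest. It fell by 0.58 with shMed1 #4 (SE 0.132, adjusted p = 0.000292), and with shMed1 #2 the value was -0.19 (SE 0.125, adjusted p = 0.222). Acot1 averaged 9.08, 8.24 and 8.42 CPM and passed with neither hairpin (adjusted p = 0.491 and 0.655).

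Of the classical PPAR targets of fat, muscle and liver, several were at or near 0 counts in every group. The pyruvate dehydrogenase kinase gene Pdk4 and the lipoprotein lipase gene Lpl had 0 counts in all 9 libraries, which allows up to 0.338 to 0.369 CPM in each. The fatty acid transporter gene Cd36 had 1 count in 1 NTC library and in 1 library with shMed1 #4 and 0 in the other 7, and the adipocyte carrier gene Fabp4 had 0 to 2 counts per library. No response of these genes to lower Med1 mRNA could be measured at this depth.
Droplet and carrier genes that were present differed by gene. Plin2, the lipid droplet coat protein of most cells and the most abundant member per length (57.3 CPM per kilobase of exon in NTC), measured 193, 209 and 202 CPM in NTC, 216, 220.0 and 216 CPM with shMed1 #2 and 214, 198 and 193 CPM with shMed1 #4. The log2 fold changes of Plin2 were 0.11 (SE 0.0454, adjusted p = 0.0371) and 0.0019 (95% interval -0.09 to 0.09). The first call did not hold in 10 of 18 alternatives (adjusted p from 0.0516 to 0.256), among them those without NTC replicate 1 or 3 or shMed1 #2 replicate 1 or 2 or 3. With library size alone the value was 0.06 (adjusted p = 0.256). Plin4, a droplet protein of fat and muscle, was scarce. It measured 5.21, 3.86 and 6.02 CPM in NTC, 7.59, 5.22 and 5.07 CPM with shMed1 #2 and 2.91, 3.61 and 3.94 CPM with shMed1 #4. It passed against NTC with neither hairpin (0.24, SE 0.2, adjusted p = 0.342, and -0.53, SE 0.224, adjusted p = 0.0674), the latter passing without NTC replicate 2 (0.0275). Angptl4, a secreted inhibitor of lipoprotein lipase and among the most widely shared PPAR targets, measured 6.79, 5.42 and 7.18 CPM in NTC, 10.3, 9.64 and 9.68 CPM with shMed1 #2 and 6.75, 7.7 and 8.58 CPM with shMed1 #4. The libraries with shMed1 #2 were above all others. Angptl4 rose by 0.61 there (SE 0.16, adjusted p = 0.00105), and with shMed1 #4 the value was 0.25 (SE 0.169, adjusted p = 0.295). Fabp5, the carrier that delivers fatty acids to PPAR delta, averaged 71.3, 70.8 and 73.7 CPM, and passed with neither (95% intervals -0.14 to 0.11 and -0.08 to 0.17).
Ucp2, a carrier of the inner mitochondrial membrane, was lower with both hairpins. It measured 106, 112 and 110.2 CPM in NTC, 69.3, 57.8 and 56.9 CPM with shMed1 #2 and 103, 91.1 and 100.3 CPM with shMed1 #4. The groups did not overlap. Ucp2 fell by 0.84 with shMed1 #2 (SE 0.0611, adjusted p = 3.14e-20) and by 0.16 with shMed1 #4 (SE 0.0574, adjusted p = 0.0277). The call with shMed1 #4 did not hold in DESeq2 (adjusted p = 0.105), without NTC replicate 2 (0.114), without NTC replicate 3 (0.0733) and without shMed1 #4 replicate 2 (0.206). The coactivator gene Ppargc1b, a driver of mitochondrial gene expression, measured 3.52, 4.34 and 4.17 CPM in NTC, 6.9, 4.64 and 5.53 CPM with shMed1 #2 and 3.61, 5.42 and 4.29 CPM with shMed1 #4. It was higher with shMed1 #2 by 0.50 (SE 0.209, adjusted p = 0.0426) and at 0.14 (SE 0.22, adjusted p = 0.685) with shMed1 #4. The first call did not hold in 9 of 18 alternatives (adjusted p from 0.0529 to 0.252), among them those without NTC replicate 1 or 2 or 3 or shMed1 #2 replicate 1 or 3. Its relative Ppargc1a had 7, 8 and 11 counts in NTC, 3, 5 and 5 with shMed1 #2 and 10, 8 and 6 with shMed1 #4, too few to be tested.

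The hairpins lowered Med1 to like levels, with a difference of 0.10 on the log2 scale (shMed1 #4 minus shMed1 #2, 95% interval -0.08 to 0.28, adjusted p = 0.461). Of the 32 members 4 were higher and 8 lower with shMed1 #4 than with shMed1 #2. Among all genes 26.0% were called between the hairpins (12.9% higher and 13.1% lower), and 33.4% of genes with a mean of at least 20 CPM. The members' share was 37.5%, near that of abundant genes. On library sizes alone 6 members were higher and 5 lower, and with upper quartile scaling 5 and 6, while 58.2% and 54.9% of all calls were higher, against 49.7% with TMM. The differences of Cpt1c (2.43, SE 0.331, adjusted p = 6.73e-09), Etfdh (0.78, SE 0.0738, adjusted p = 9.78e-15) and Ucp2 (0.68, SE 0.0618, adjusted p = 5.97e-15) were the 3 highest, and each of these genes was lower with shMed1 #2. Acadm (-0.45, SE 0.0742, adjusted p = 1.22e-06) was lower with shMed1 #4, and Acadl (-0.22, SE 0.0565, adjusted p = 0.0017) was higher than NTC with both but less so with shMed1 #4. These 5 calls were made in all 18 alternatives.
Another 7 calls between the hairpins did not hold in some alternatives. The call of Acads (0.36, adjusted p = 0.00635) did not hold without shMed1 #4 replicate 3 (adjusted p = 0.206), where the value was 0.20. The difference of Acsl1 (-0.29, adjusted p = 0.00535) did not hold without shMed1 #2 replicate 2 (adjusted p = 0.186), with a value of -0.17 there. For Plin4 (-0.77, adjusted p = 0.00406) the call did not hold without shMed1 #2 replicate 1 (adjusted p = 0.0817). That of Acot2 (-0.39, adjusted p = 0.0215) did not hold in DESeq2 (adjusted p = 0.0733), without shMed1 #2 replicate 1 (0.0999), without shMed1 #2 replicate 2 (0.0586), without shMed1 #4 replicate 1 (0.0687) and without shMed1 #4 replicate 2 (0.0601). The call of Hadhb (-0.19, adjusted p = 0.0236) did not hold in DESeq2 (adjusted p = 0.0696), on library sizes alone (0.0527), without shMed1 #2 replicate 3 (0.0995) and without shMed1 #4 replicate 1 (0.0701). For Hadha (-0.13, adjusted p = 0.0406) it did not hold in 8 of 18 alternatives (adjusted p from 0.0712 to 0.171), among them those without shMed1 #2 replicate 1 or 3 or shMed1 #4 replicate 1 or 3. Finally, the call of Etfa (-0.16, adjusted p = 0.0372) did not hold in 7 of 18 alternatives (adjusted p from 0.0512 to 0.231), among them those without shMed1 #2 replicate 2 or 3 or shMed1 #4 replicate 3. Without shMed1 #2 replicate 1 the value was -0.25 (adjusted p = 0.00152). Hadh missed the threshold (0.18, 95% interval 0.04 to 0.32, adjusted p = 0.0504) and passed on library sizes alone (0.025), with upper quartile scaling (0.0334), with the stricter filter (0.0424) and without shMed1 #4 replicate 2 (0.0166).

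**Figure D4:**
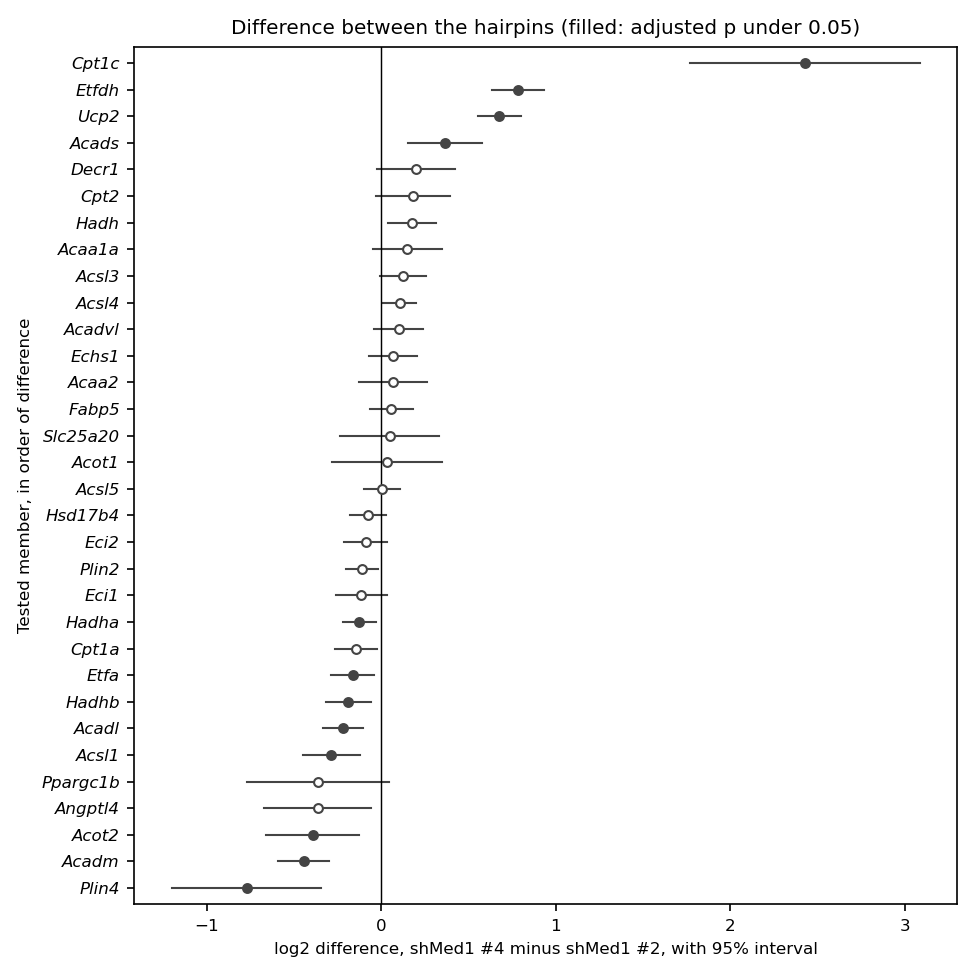
Fitted log2 difference of shMed1 #4 minus shMed1 #2 (x axis) with 95% intervals for the 32 tested members in order of size; filled points passed an adjusted p of 0.05. Cpt1c, Etfdh and Ucp2 lie at the upper end and Plin4, Acadm and Acot2 at the lower end, while Acsl5 sits near 0 with an interval from -0.10 to 0.11.

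The receptors themselves were measured beside their targets. Ppard, the widely expressed PPAR, averaged 81.8, 85.3 and 87.6 CPM and passed with neither hairpin (95% intervals -0.06 to 0.18 and -0.02 to 0.22). Ppara, the receptor of liver and heart, was scarce at 2.61 CPM on average in NTC. Log2 fold changes were -0.59 (SE 0.328, adjusted p = 0.139) and -0.23 (SE 0.312, adjusted p = 0.64), and the first passed without NTC replicate 1 (0.0401). Pparg, the receptor of fat cells, stayed under 1 CPM in every library and Rxrg was at 0. Of the 4 tested receptor genes 1 was lower with each hairpin, which is 25% beside 43.7% and 28.2% of all genes called. Rxrb, which encodes a retinoid X receptor, measured 66.1, 63.5 and 69 CPM in NTC, 52, 50.2 and 49.2 CPM with shMed1 #2 and 52.4, 47.3 and 50.8 CPM with shMed1 #4. No hairpin library reached the lowest of NTC. It fell by 0.39 (SE 0.0661, adjusted p = 5.96e-07) and by 0.40 (SE 0.0663, adjusted p = 8.95e-07). Rxra, another retinoid X receptor gene, averaged 54.4, 56.2 and 56.9 CPM in NTC, shMed1 #2 and shMed1 #4. It passed with neither hairpin (95% intervals -0.09 to 0.18 and -0.07 to 0.20).
Other genes of the same pathways, from lists set by name, also moved in both directions. Of 66 tested, 11 were higher and 16 lower with shMed1 #2 (40.9% called) and 6 were higher and 5 lower with shMed1 #4 (16.7%), below the 43.7% and 28.2% of all genes. Of 13 tested genes of mitochondrial oxidation and related steps, 1 was higher and 5 lower with shMed1 #2 and 0 higher and 1 lower with shMed1 #4 (medians -0.14 and -0.09 on the log2 scale). The shares called were 46.2% and 7.69%, beside 43.7% and 28.2% of all genes. Mlycd, which removes the malonyl-CoA that blocks fatty acid entry, and Acacb, which makes it at mitochondria, both fell with shMed1 #2 (-0.86, SE 0.242, adjusted p = 0.00245, and -0.63, SE 0.195, adjusted p = 0.00546). With shMed1 #4 neither passed (-0.40 and -0.32, adjusted p = 0.194 and 0.218). Acad10, a scarce dehydrogenase gene, was at -0.56 (SE 0.231, adjusted p = 0.0472) and -0.30 (SE 0.224, adjusted p = 0.355), and its call with shMed1 #2 did not hold in 7 of 18 alternatives (adjusted p from 0.0553 to 0.251), among them those without NTC replicate 2 or 3 or shMed1 #2 replicate 2 or 3 or shMed1 #4 replicate 2.
Of 16 tested peroxisomal lipid genes, 2 were higher and 3 lower with shMed1 #2 and 1 higher and 1 lower with shMed1 #4 (medians 0.03 and -0.08). The shares called were 31.2% and 12.5%, beside 43.7% and 28.2% of all genes. Ech1 is on this list and on that of mitochondrial oxidation. It is the 1 gene counted as lower with shMed1 #4 in each (-0.23, SE 0.0795, adjusted p = 0.0211). Phyh, which oxidizes phytanic acid, rose by 0.28 and 0.37 (adjusted p = 0.0208 and 0.00315). Its call with shMed1 #2 did not hold in DESeq2 (adjusted p = 0.068), on library sizes alone (0.0601), without NTC replicate 3 (0.0799) and without shMed1 #2 replicate 2 (0.238). That with shMed1 #4 did not hold without shMed1 #4 replicate 2 (adjusted p = 0.0679). Abcd2, a peroxisomal importer of very long chains, fell with shMed1 #2 (-1.82, SE 0.46, adjusted p = 0.000682), from 1.45, 1.57 and 1.97 CPM to 0.46, 0.348 and 0.576 CPM, and was at -0.94 (SE 0.402, adjusted p = 0.0712) with shMed1 #4, which passed without shMed1 #4 replicate 2 (0.0493). Hacl1 passed with neither (-0.41 and -0.53, adjusted p = 0.316 and 0.243).
Of 9 tested genes of triglyceride storage and breakdown, 3 were higher and 2 lower with shMed1 #2 and 2 higher and 0 lower with shMed1 #4 (medians 0.07 and 0.15). The shares called were 55.6% and 22.2%, beside 43.7% and 28.2% of all genes. Dgat2, which completes triglyceride synthesis, measured 6.55, 7.11 and 6.95 CPM in NTC, 8.97, 9.17 and 10.03 CPM with shMed1 #2 and 9.43, 11.1 and 10.9 CPM with shMed1 #4. Every hairpin library was above NTC. It rose by 0.45 (SE 0.157, adjusted p = 0.0146) and 0.61 (SE 0.154, adjusted p = 0.00137). The first call did not hold in DESeq2 (adjusted p = 0.0505), without NTC replicate 1 (0.0527) and without shMed1 #2 replicate 3 (0.062). Fitm2, which helps droplets bud, rose by 0.39 and 0.25 (adjusted p = 9.4e-05 and 0.0248). Its call with shMed1 #4 did not hold in DESeq2 (adjusted p = 0.0824), without NTC replicate 1 (0.0732), without NTC replicate 2 (0.117) and without shMed1 #4 replicate 3 (0.199). Cideb, a droplet protein best known from liver, rose by 0.73 with shMed1 #2 (adjusted p = 0.0162) and was at 0.15 (SE 0.283, adjusted p = 0.748) with shMed1 #4. The call did not hold in DESeq2 (adjusted p = 0.0641), without NTC replicate 2 (0.0736) and without shMed1 #2 replicate 2 (0.0786).
Among 13 tested genes of uptake, activation and thioesterases, 4 were higher and 2 lower with shMed1 #2 and 3 higher and 1 lower with shMed1 #4 (medians -0.06 and -0.02). The shares called, 46.2% and 30.8%, were near the 43.7% and 28.2% of all genes. The acyl-CoA thioesterase genes Acot9 and Acot7 were higher with both hairpins. Acot9 measured 83.1, 95 and 84.9 CPM in NTC, 120.1, 121 and 122 CPM with shMed1 #2 and 106, 110.5 and 98.8 CPM with shMed1 #4. It rose by 0.47 (SE 0.0548, adjusted p = 1.34e-11) and 0.26 (SE 0.0558, adjusted p = 0.000108). Acot7 rose by 0.33 and 0.20 (adjusted p = 3.05e-08 and 0.000762). Acsbg1, an acyl-CoA synthetase of the bubblegum family, rose by 0.78 with shMed1 #2 (adjusted p = 1.12e-05) and was at 0.31 (SE 0.161, adjusted p = 0.155) with shMed1 #4.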

How the data were processed

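The authors deposited raw counts per gene for each of the 9 libraries. STAR and HTSeq with the build GRCm38 (mm10) are named in the submitters' processing notes. The versions, annotation and strand option are not known here. Per the labels' protocols total RNA was run on a BGISEQ-500. Symbols, positions and exon lengths come from GENCODE M21 on GRCm38, and promoter windows from RefSeq. The exon length of a gene is the union of all its annotated exons, which can exceed the length of its transcripts. Rankings per kilobase of exon are therefore rough.

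Genes were kept by filterByExpr, scaled by TMM and tested over all 9 libraries with edgeR 4.0.16 (R 4.3.3, quasi-likelihood, robust, 1 coefficient per group), with Benjamini-Hochberg adjustment over 13611 genes and a threshold of 0.05. Intervals are 95% intervals, and standard errors follow from the F statistic. CPM use the TMM-scaled totals, and only the limit of 3 counts uses raw totals. Pairs of replicates all differed beyond sampling noise (1.55 to 2.53 chi-square units per degree of freedom). Alternatives were other scalings and filters, DESeq2 1.42.0, no robust option, only the groups compared, a replicate block and each library left out. Every member is reported; of each other list up to 3 genes are named, those called with both hairpins first, then by size of the mean change. Named outside this rule are Pparg, Rxra and Rxrg, to complete the receptors, Pdk1 and Pdk3, and Ech1, which is on more than 1 list. Members and lists were chosen with earlier results of these data known, and the other list genes enter only the counts. Overlaps of exons and of 50-base words were computed after the data were seen. Figures were drawn with matplotlib 3.10.9.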

Additional observations from a re-analysis of the deposited data

Results flagged for a closer look

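The effects of the hairpins against NTC differed for 12 members by the direct test of shMed1 #4 against shMed1 #2 (edgeR, adjusted p under 0.05), although Med1 itself was not shown to differ. The log2 differences of shMed1 #4 minus shMed1 #2 were 2.43 for Cpt1c, 0.78 for Etfdh, 0.68 for Ucp2 and 0.36 for Acads. They were -0.77 for Plin4, -0.45 for Acadm, -0.39 for Acot2, -0.29 for Acsl1, -0.22 for Acadl, -0.19 for Hadhb, -0.16 for Etfa and -0.13 for Hadha. The share called was 37.5% of the 32 tested members, beside 26.0% of all genes and 33.4% of genes with a mean of at least 20 CPM. In all 18 alternatives 5 of the calls held, those of Cpt1c, Acadm, Acadl, Etfdh and Ucp2, and 7 ended in some. What sets the hairpins apart was not tested.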

How the results depend on the processing

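With each library left out in turn, the members called numbered 14 to 21 with shMed1 #2, 7 to 12 with shMed1 #4, 15 to 20 on the mean of both hairpins and 9 to 12 between the hairpins, and all genes called 5290 to 6138, 3172 to 3878, 4561 to 5594 and 2817 to 3566. DESeq2 called 13 members with shMed1 #2, against 21 in edgeR. The other counts stayed within 1.5 times of edgeR's, except 7 members with shMed1 #4 without NTC replicate 3. Over single members and alternatives, 2112 results kept their side of the threshold, 134 lost a call, 26 gained one and 0 turned a called direction. Same-numbered samples did not deviate together across genes (correlations -0.04 to 0.04), so the numbers are not read as pairs. With the replicate number as a block 20, 12, 19 and 12 members were called, and 5892, 3786, 5383 and 3461 genes in all; Hadhb with shMed1 #2 was the member that lost its call (adjusted p = 0.0501). The causes were not tested. Values near 0.338 to 0.369 CPM, a count of 3, have little precision.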

Other observations

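Lpin1, from a list of genes near the pathway, was lower with both hairpins. It encodes lipin 1, a phosphatidate phosphatase that also acts in the nucleus with PPARs and PGC-1. It measured 27.2, 29.8 and 24.7 CPM in NTC, 7.93, 6.97 and 11.6 CPM with shMed1 #2 and 15.4, 12.9 and 12.8 CPM with shMed1 #4. The groups did not overlap. Its log2 fold changes were -1.62 (SE 0.127, adjusted p = 1.32e-18) and -0.99 (SE 0.117, adjusted p = 8.34e-11). Between the hairpins the difference was 0.63 (SE 0.143, adjusted p = 0.000397). Its list holds 10 tested genes of pyruvate dehydrogenase control, uncoupling and mitochondrial gene regulation. The list had 0 higher and 3 lower with shMed1 #2 and 0 higher and 2 lower with shMed1 #4 by edgeR's test. So 3 and 2 of 10 were called, a smaller share than the 43.7% and 28.2% of all genes called.

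With Pdk4 at 0, other pyruvate dehydrogenase kinases were present and differed by gene. Pdk1, named after its values were seen, measured 30.7, 33.1 and 32 CPM in NTC, 31.7, 34.4 and 40.3 CPM with shMed1 #2 and 21.4, 22.7 and 21.9 CPM with shMed1 #4. It fell by 0.54 with shMed1 #4 (SE 0.0937, adjusted p = 2.97e-06) and was at 0.15 (SE 0.0861, adjusted p = 0.148) with shMed1 #2, which passed without shMed1 #2 replicate 1 (0.0433). Pdk2 measured 5.45, 6.03 and 6.37 CPM in NTC, 3.22, 3.02 and 3.57 CPM with shMed1 #2 and 6.05, 3.97 and 4.52 CPM with shMed1 #4, and fell by 0.86 with shMed1 #2 (adjusted p = 0.000511), with -0.29 (SE 0.197, adjusted p = 0.285) for shMed1 #4. Pdk3, also named after its values were seen, averaged 61.4, 67 and 67.3 CPM and passed with neither hairpin (0.12, SE 0.0645, adjusted p = 0.112, and 0.13, SE 0.0646, adjusted p = 0.126). Both values passed without NTC replicate 3 (0.0185 and 0.0254). The difference between the hairpins was -0.69 (SE 0.0917, adjusted p = 3.21e-09) for Pdk1 and 0.57 (SE 0.221, adjusted p = 0.0475) for Pdk2. The latter call did not hold in 12 of 18 alternatives (adjusted p from 0.0511 to 0.309), among them those without NTC replicate 1 or 2 or 3 or shMed1 #2 replicate 1 or 2 or 3 or shMed1 #4 replicate 1 or 3. The phosphatase gene Pdp2 fell by 0.26 with shMed1 #2 (adjusted p = 0.00329) and was at -0.16 (SE 0.0739, adjusted p = 0.108) with shMed1 #4. Oxct1, which lets cells burn ketone bodies, was abundant at 343, 369 and 353 CPM. Its small rise with shMed1 #2 (0.10, SE 0.0424, adjusted p = 0.0406) did not hold in 10 of 18 alternatives (adjusted p from 0.0587 to 0.32), among them those without NTC replicate 1 or 2 or 3 or shMed1 #2 replicate 2 or 3.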
